A study of Mus musculus with 20 samples.

Results

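Kmt2a, Kmt2b, Kmt2c, Kmt2d, Kmt2e, Setd1a, Setd1b and Setd2 encode histone methyltransferases of chromatin, and their transcripts carry many peaks of N6-methyladenosine (m6A), the commonest internal mark of messenger RNA. All 8 genes had peaks in both sorted thymocyte populations of the study. Members were the rows of the authors' deposited peak tables that the authors' annotation named after one of these genes. They came to 67 of 13450 peaks for CD4 and CD8 double-positive (DP) thymocytes and 51 of 12542 peaks for invariant natural killer T (iNKT) cells. The genes were chosen by family, with earlier results of these data known.

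The libraries came from thymocytes of mice aged 6 to 8 weeks, and the labels give C57BL/6 for every sample. Wild-type (WT) mice were set against Mettl3fl/flCD4-cre mice, in which the m6A writer gene Mettl3 is deleted by a Cre recombinase driven by Cd4 control elements, which act from the DP stage on. iNKT cells (CD1d tetramer and T cell receptor beta positive) gave 3 input and 3 m6A immunoprecipitation libraries per genotype, and DP cells gave 2 and 2. DP cells were sorted as CD1d tetramer negative, and 7AAD-positive (dead) cells were left out of both sorts. The labels do not say whether mice were pooled, and the tables hold no Mettl3 expression level with which to check the deletion. The tables hold 1 combined comparison per peak and no value per library, so depth and the spread between mice are unknown and the false discovery rates (FDR) are the authors' own. Of markers chosen for each population, 6 of 8 iNKT markers had a peak in the iNKT table and 2 of 8 in the DP table. Of DP markers, 4 of 8 had a peak in the DP table and 3 of 8 in the iNKT table, so they hardly separate the tables, and 5 of the 12 DP rows of these markers lay outside the named gene. Markers of other thymus cells had a peak for 0 of 8 and 2 of 8 genes in the DP and iNKT tables. A peak shows methylated RNA of a gene and not its level.

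The Kmt2 and Setd1 enzymes methylate histone H3 on lysine 4, the mark of promoters and enhancers. Kmt2a to Kmt2d, Setd1a and Setd1b each work inside a large complex with shared core subunits (Wdr5, Rbbp5, Ash2l and Dpy30). Setd1a and Setd1b place most of the trimethyl mark at active promoters, Kmt2a and Kmt2b act with menin at selected promoters, and Kmt2c and Kmt2d prime enhancers with the monomethyl mark. Kmt2e belongs to the family by sequence but has little or no methyltransferase activity of its own. Setd2 trimethylates lysine 36 along transcribed genes, and this mark is known to be bound by the Mettl14 subunit of the m6A writer, which ties this enzyme to the placement of m6A itself. m6A is common near stop codons and in long internal exons.

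The log2 fold change of a peak between genotypes is called its log2 change here, and its sign is not stated in the files. A negative value was read as likely less methylation after Mettl3 deletion, because the deposited gene lists hold 4336 of 4337 genes with a negative DP peak and 5339 of 5343 genes with a negative iNKT peak, and no gene without one. The reading assumes that the lists name genes that lost methylation, which was not tested. Lower and higher below refer to this likely direction and to peaks at a differential FDR of 0.05 or less. Positions are in the mouse build mm10. All 8 genes stand on both lists, also where none of their peaks passed. The lists hold 4337 DP and 5340 iNKT genes, where 6618 and 6774 genes had a peak. Nearly every gene with any negative peak is listed, so being listed does not set the 8 genes apart.

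The first comparison asked how methylation of these transcripts differed between Mettl3-deleted and wild-type iNKT cells. In iNKT cells 7 of the 8 genes carried at least 1 lower peak, and Kmt2e carried none. Of the 51 peaks, 19 were lower and 4 were higher per the authors' deposited table. Of the 4 higher peaks, 3 lie within the gene they are named after. Among all iNKT peaks the shares were 19.8% lower and 5.84% higher, and those of the 8 genes were 37.3% and 7.84%. The median log2 change per the authors' deposited table was -1.94 over the 51 peaks (quartiles -3.29 and -0.641) and -0.976 over all iNKT peaks. A negative value was listed for 44 of the 51 peaks (86.3%), against 68.6% of all peaks. Less methylation in every cell and fewer cells with methylated transcripts cannot be told apart in RNA from sorted populations. Peaks of 1 transcript share their source and are not replicates.

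Genes with many peaks have more chances to carry a lower one. At least 1 lower peak was found in 26.2% of all genes with an iNKT peak, but in 77.8% of the 167 genes with 6 or more peaks. Kmt2a, Kmt2b, Kmt2c, Kmt2d, Setd1a and Setd1b have 6 or more, and all 6 had a lower peak. Lower and higher peaks in the same gene were found in 18% of those 167 genes, and in Kmt2a, Kmt2c and Kmt2d here.

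**Figure D1:**
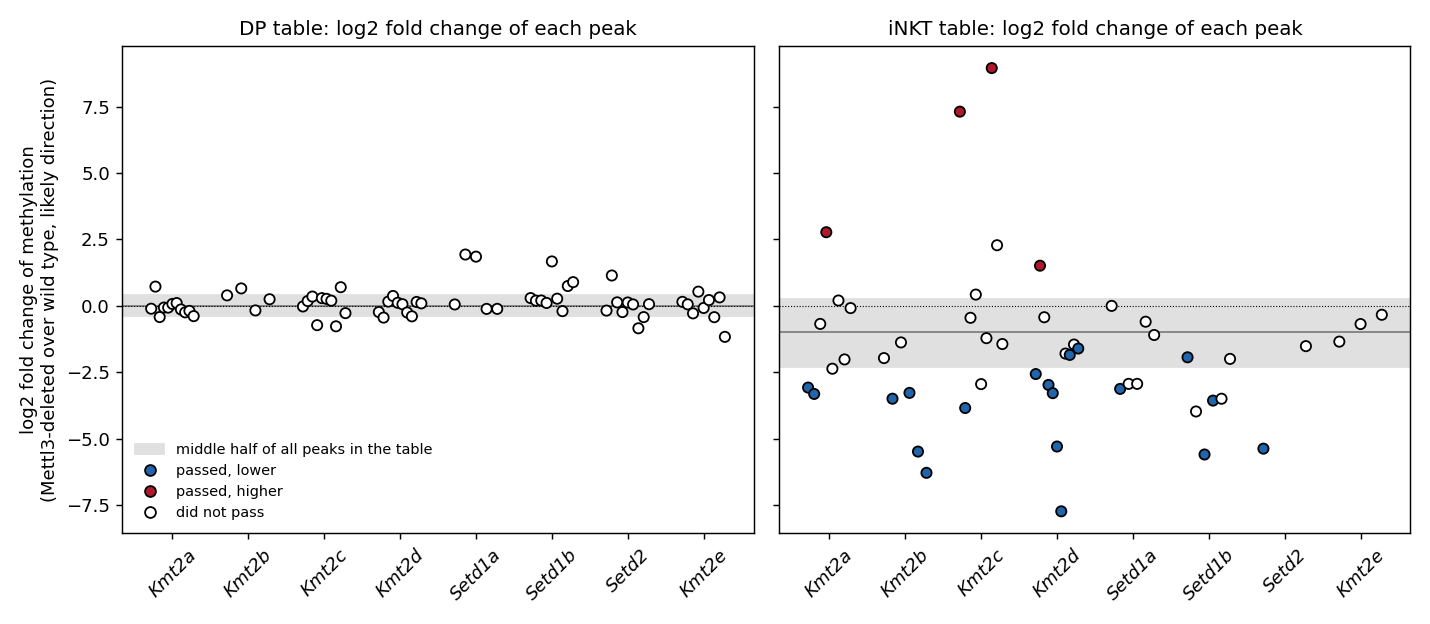
Log2 fold change of every peak of the 8 genes per the authors' deposited tables, DP on the left and iNKT on the right. Filled points passed an FDR of 0.05, the grey band spans the quartiles of all peaks of the table and the grey line is their median. All 67 DP points are open, while the iNKT points reach from -7.74 in Kmt2d to 8.95 in Kmt2c.

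The enhancer methyltransferase gene Kmt2d (chromosome 15) had the most changed peaks, 7 lower and 1 higher among 11. The deepest fall lay in exon 35 of 55, where 2 neighbouring peaks covered 1352 nt. The first, of 721 nt at chr15:98850301-98851021, had a log2 change of -7.74 per the authors' deposited table (FDR 1.58e-23). Only 11 of the 12542 iNKT peaks had a more negative value. The second, at chr15:98849492-98850122, had -5.30 per the authors' deposited table (FDR 1.58e-19). With fold enrichments over input of 175 and 165 per the authors' deposited table, both were among the most enriched 1.5% of iNKT peaks.

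Away from exon 35 the Kmt2d changes were smaller. The 2 peaks in exon 40 had log2 changes of -2.98 (FDR 2e-18) and -3.29 (FDR 3.47e-06) per the authors' deposited table. A peak annotated to the 3' untranslated region (UTR) had -2.57 (FDR 0.000178) per the authors' deposited table. A stretch of 1859 nt starting in exon 10 had a log2 change of -1.61 (FDR 5.37e-08) per the authors' deposited table, though its fold enrichment was 64.4. In exon 32 a single peak passed (-1.85, FDR 0.017) and its 2 neighbours, with -1.80 and -1.46 per the authors' deposited table, did not. One peak ran against the others: exon 49 (chr15:98840153-98840363) was higher, with a log2 change of 1.51 per the authors' deposited table (FDR 0.00234, fold enrichment 4.07). The remaining peak, in exon 45, had -0.432 per the authors' deposited table.

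Kmt2c, the partner gene of Kmt2d at enhancers, had a different mix of signs. Of its 9 iNKT peaks 1 was lower, 2 were higher and 6 did not pass. The lower peak, in exon 11 of an 18-exon transcript model (chr5:25284608-25284817), had a log2 change of -3.85 per the authors' deposited table (FDR 0.011). The highest value of all members, 8.95 per the authors' deposited table (FDR 8.32e-10), belonged to a 91 nt peak in 2 pieces across a splice junction, annotated to exon 31 of 59. Its fold enrichment was 4.25 per the authors' deposited table, and 75% of iNKT peaks were more enriched.

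The other higher Kmt2c peak does not lie in Kmt2c. It had a log2 change of 7.31 per the authors' deposited table (FDR 3.98e-19), but at chr5:25265020-25265349 it is outside the RefSeq span of Kmt2c, on the opposite strand and inside Galnt11, a glycosyltransferase gene. Without it Kmt2c had 1 lower and 1 higher peak. A further Kmt2c peak and 1 Kmt2a peak also lay on the strand opposite to the gene, with log2 changes of 2.28 and -0.0875 per the authors' deposited table, and neither passed. The 5 other Kmt2c peaks that did not pass ran from -2.95 to 0.422 per the authors' deposited table, and 3 of them share exon 36.

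In Kmt2b, a promoter-bound member of the family, all 6 iNKT peaks had negative values and 4 were lower. The peaks fell into 2 exons. Exon 3 of 37, near the start of the transcript, held 4 peaks that together cover 1204 nt. From the gene start inward they had log2 changes of -6.29, -5.49, -3.28 and -1.38 per the authors' deposited table, and the first 3 passed (FDR 1.62e-09, 1.58e-36 and 0.000468). The fold enrichments in the same order were 46.2, 71.3, 5.16 and 2.41 per the authors' deposited table, so the values closest to 0 stood at the weaker peaks. Exon 28 held 2 peaks, of -3.50 (FDR 7.24e-07) and -1.97 per the authors' deposited table, and the second did not pass.

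Kmt2a, the paralog of Kmt2b, had 2 lower, 1 higher and 5 other peaks. Its lower peaks both touch exon 27 of 36, with log2 changes of -3.32 (FDR 0.024) and -3.08 (FDR 0.0427) per the authors' deposited table. Both passed at an FDR of 0.05 and not at 0.01. The higher peak, of 211 nt at exon 7 (chr9:44842376-44842735), had 2.77 per the authors' deposited table (FDR 1.7e-06). Its long exon 3 held 3 peaks, with log2 changes of -2.37, -2.02 and 0.198 per the authors' deposited table, and none passed. A further exon 27 peak had -0.683 per the authors' deposited table.

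**Figure D2:**
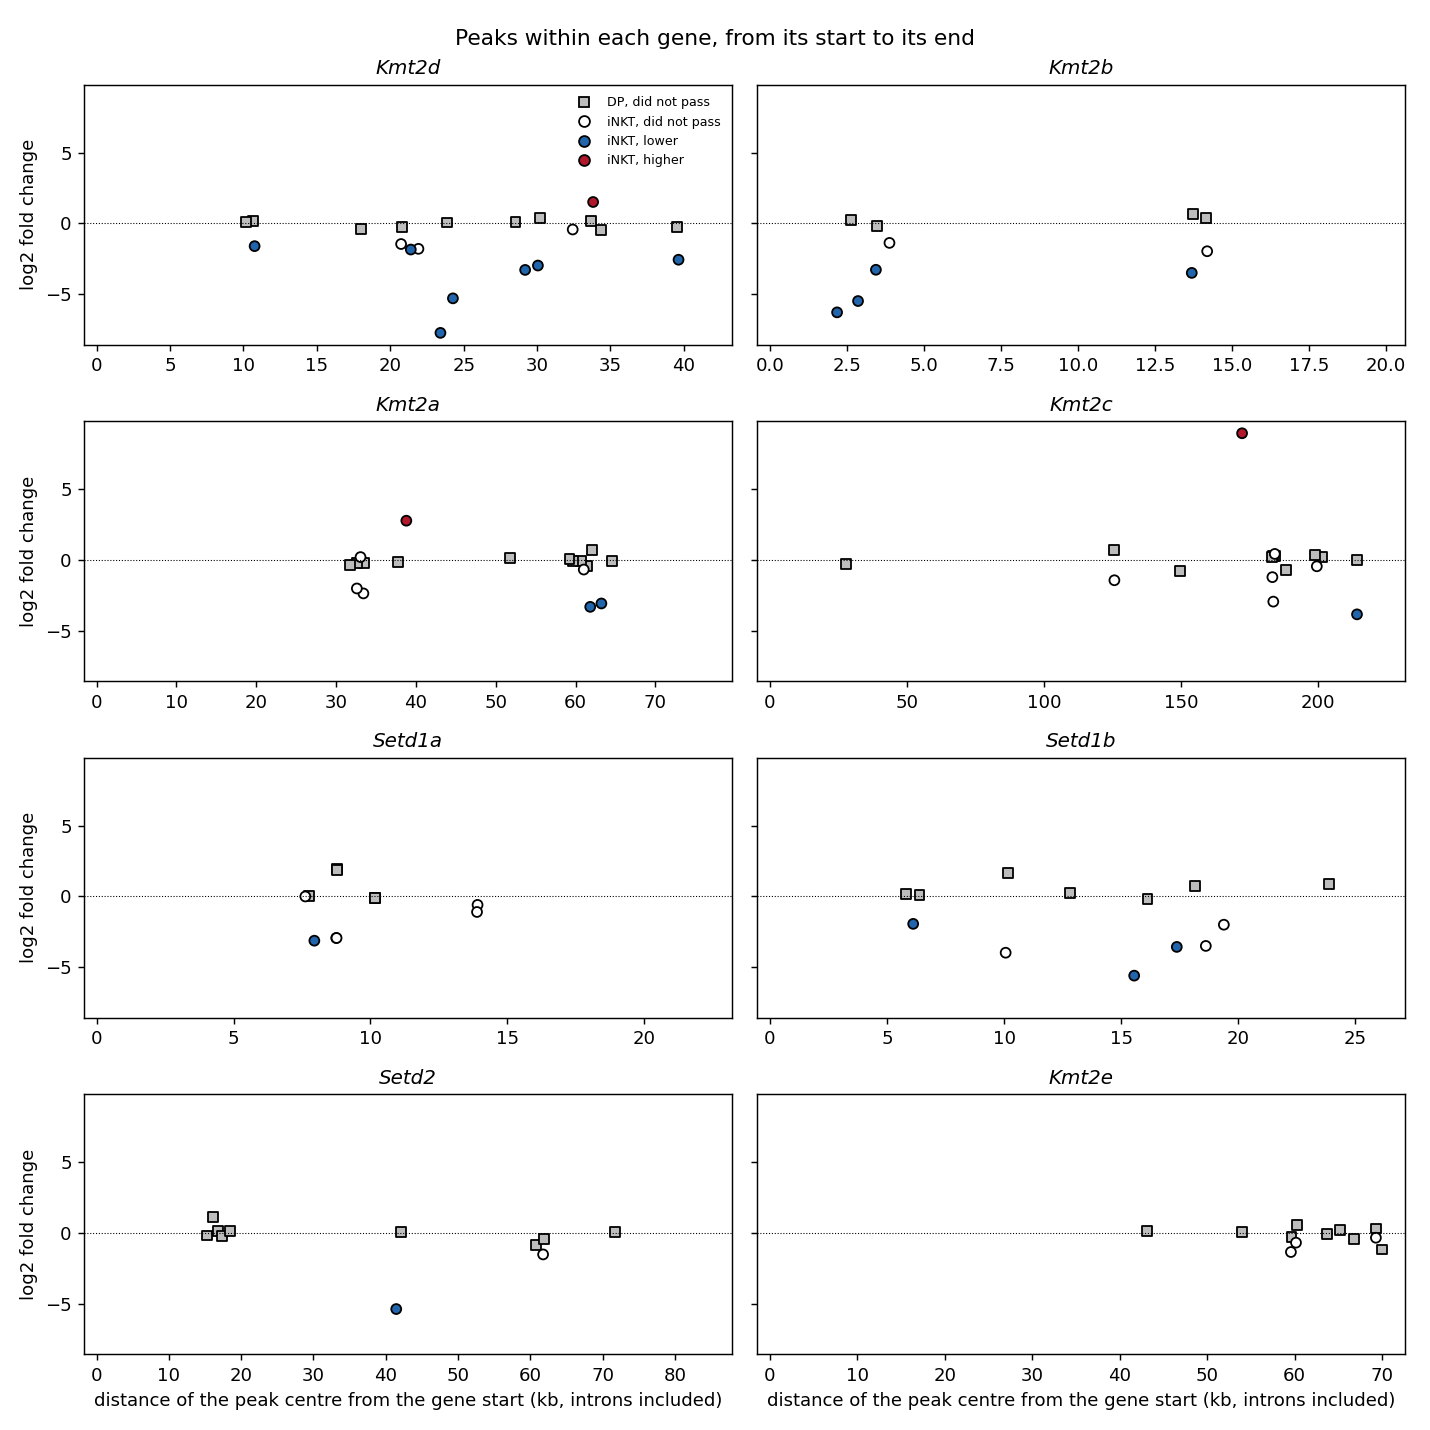
Log2 fold change of each peak within its named gene, against the distance of its centre from the RefSeq start (kb, introns included). There is 1 panel per gene, each x axis spanning the gene. Peaks outside the named gene or on its opposite strand, 2 of DP and 3 of iNKT cells, are left out. Squares are DP peaks and circles iNKT peaks, and filled circles passed. Kmt2d falls deepest at 23.4 and 24.3 kb, and Kmt2b at 2.18 and 2.86 kb.

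Setd1a and Setd1b, which encode the catalytic subunits of the main promoter methyltransferase complexes, had 12 iNKT peaks named after them, and each of these had a negative value. The 4 further rows inside these genes that carry a neighbour's name had positive values, given with the naming of peaks. Setd1b had 3 lower peaks among 6. They had log2 changes of -5.60 at exon 9 of 17 (FDR 3.98e-16), -3.57 at exon 11 (FDR 1.26e-21) and -1.94 over 1109 nt of exon 6 of a short transcript model (FDR 1.51e-05) per the authors' deposited table. The last was the most enriched of the Setd1 peaks (108-fold over input). Its exon 7 and exon 12 peaks, of -3.98 (FDR 0.055) and -3.50 (FDR 0.104) per the authors' deposited table, missed the threshold although their values were as negative as those of peaks that passed. The sixth peak, also in exon 12 (enrichment 1.51 per the authors' deposited table), did not pass either.

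Setd1a had 1 lower peak, in exon 7 of 19 (chr7:127785163-127785522), of -3.13 per the authors' deposited table (FDR 0.000245, fold enrichment 66.5). A neighbouring peak in the same exon stood at -0.0041 per the authors' deposited table. The Setd1a peak in exon 8 is listed as a pair of rows that start 4 nt apart, each with -2.94 (FDR 0.204), and the exon 13 peak likewise as a pair, of -0.60 and -1.10 per the authors' deposited table. Counted by site, the 6 rows are 4 peaks.

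Setd2, the lysine 36 methyltransferase gene, had only 2 iNKT peaks. One, at chr9:110573849-110574059 and annotated to a 3' UTR, had a log2 change of -5.38 per the authors' deposited table (FDR 1e-10). It lies 41.5 kb from the gene start in a gene of 86134 nt, so the annotation follows a short transcript model and not the end of the gene. The other, of -1.52 per the authors' deposited table, did not pass. Kmt2e had 3 iNKT peaks, with -1.35, -0.688 and -0.339 per the authors' deposited table, and the smallest FDR was 0.309. The last of these covers 1317 nt of its final exon at a fold enrichment of 10.3 per the authors' deposited table.

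Among the 51 peaks the sign went with enrichment. All 25 peaks above the iNKT median enrichment of 8.32 had negative values, and 16 of them (64%) were lower and none was higher. Of the 26 peaks at or below it, 3 were lower and 4 higher. Over all iNKT peaks above that median, 83% had negative values, 22.9% were lower and 3.64% higher. Below it, 54.2% had negative values, 16.8% were lower and 8.05% higher. The 4 higher peaks named after the 8 genes had enrichments of 3.97 to 7.15 per the authors' deposited table. The value of 7.15 belongs to the peak that lies in Galnt11. Of the 4 peaks, 3 cross a splice junction, with the Galnt11 peak among them, as do 185 of all 733 higher iNKT peaks. The 19 lower peaks ran from 2.95 to 175 with a median of 24.4, against 10.9 for all lower iNKT peaks per the authors' deposited table. Fold change and enrichment come from the same libraries, so this is a description.

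**Figure D3:**
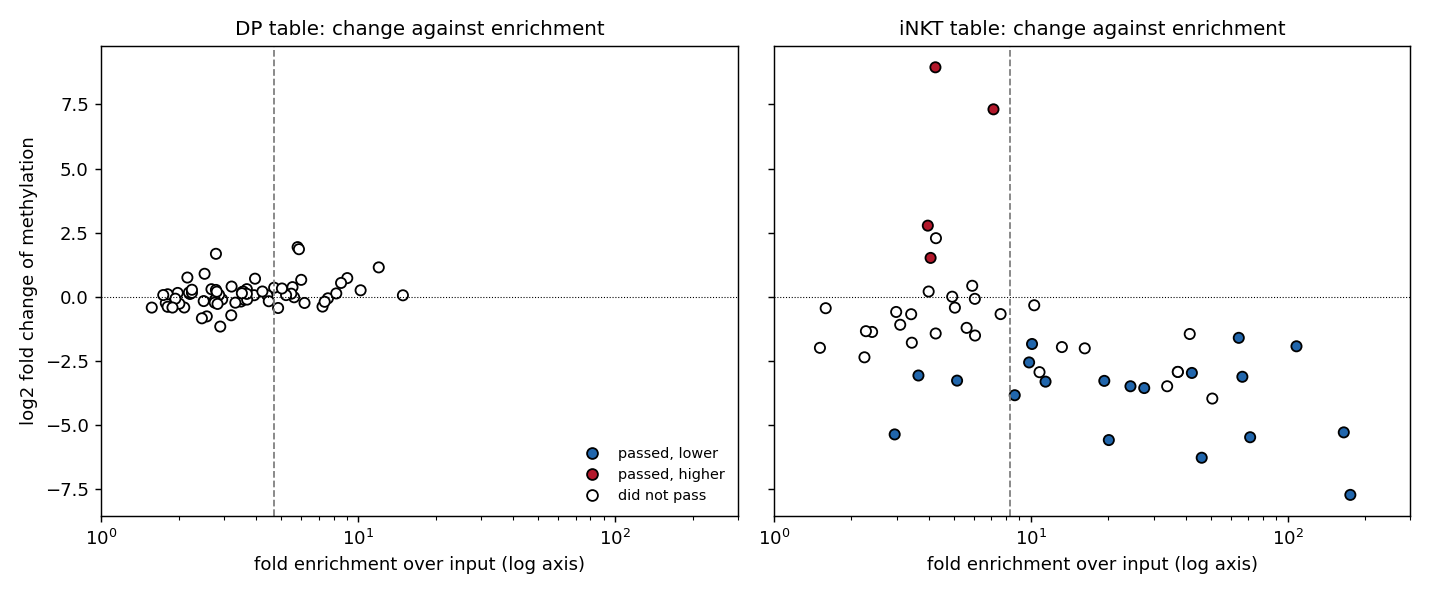
Log2 fold change against fold enrichment over input (log axis) for the peaks of the 8 genes, DP on the left and iNKT on the right. The dashed line is the median enrichment of all peaks of the table (4.7 and 8.32), and filled points passed an FDR of 0.05. Right of the line in the iNKT panel all 25 points lie below 0.

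The same question in DP thymocytes gave no passing peak. None of the 67 DP peaks of the 8 genes passed an FDR of 0.05 per the authors' deposited table, where 0.743% of all DP peaks were lower and 0.483% higher. At an FDR of 0.10, 1 was higher, against 0.825% of all DP peaks. At an unadjusted p of 0.05, 6 were lower and 6 higher, against 6.5% and 6.18% of all DP peaks, or 17.9% together against 12.7%. No other tool could be run on these tables. The median log2 change per the authors' deposited table was 0.069 (quartiles -0.198 and 0.264), against 0 for all DP peaks, and 28 of the 67 values were negative.

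The DP peak closest to the threshold lay in Kmt2d exon 40 (chr15:98843374-98844405), with a log2 change of 0.369 per the authors' deposited table (FDR 0.0646). A second Kmt2d peak, starting at exon 21, followed with -0.398 (FDR 0.122) per the authors' deposited table. The most positive DP values were 1.93 and 1.85 per the authors' deposited table, from the paired rows of Setd1a exon 8 (FDR 0.386 and 0.413). The next were 1.67 at Setd1b exon 7 and 1.14 in Setd2 exon 3, and the most negative was -1.17 in Kmt2e per the authors' deposited table. The DP medians per gene stayed between -0.11 in Kmt2a and 0.319 in Kmt2b per the authors' deposited table. In Setd1b 8 of 9 DP values were positive and in Kmt2a 8 of 11 were negative. Outside Kmt2a and Setd1b, values of each sign were mixed, with 2 of 5 negative in Setd1a, 4 of 10 in Kmt2c and in Kmt2d, 4 of 9 in Kmt2e and in Setd2, and 1 of 4 in Kmt2b. The lowest and highest DP log2 changes per the authors' deposited table were -0.425 and 0.722 in Kmt2a, -0.175 and 0.654 in Kmt2b, and -0.773 and 0.699 in Kmt2c. They were -0.445 and 0.369 in Kmt2d and -1.17 and 0.533 in Kmt2e per the authors' deposited table. In the remaining genes they were -0.117 and 1.93 (Setd1a), -0.202 and 1.67 (Setd1b) and -0.848 and 1.14 (Setd2) per the authors' deposited table. The values above 1 in size belonged to 5 rows, at 4 sites, of 91 to 330 exonic nt, while the long peaks, such as the 1619 nt of Kmt2d exon 40 (0.113), the 1138 nt of Kmt2e exon 26 (0.316) and the 1079 nt of Setd2 exon 3 (0.124), stayed near 0 per the authors' deposited table.

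The label of some DP peaks is also loose. The 2 Setd1b rows listed 0.6 kb upstream of the gene, 1 on each strand, lie inside the neighbour Rhof, and had 0.29 and 0.193 per the authors' deposited table.

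Some of these sites were peaks in both populations. Peaks that share 1 exonic base or more on 1 strand were counted as overlapping. So counted, 39 of the 67 DP peaks (58.2%) and 39 of the 51 iNKT peaks (76.5%) overlapped, in 46 pairs. They include 18 of the 19 lower iNKT peaks. With a reciprocal overlap of 50% the shares were 17.9% and 23.5%. The overlap of all peaks was not computed, so these shares cannot be called high or low. The DP peaks of the 46 pairs had log2 changes from -1.17 to 1.93 (median 0.113) per the authors' deposited table. Their iNKT counterparts had -7.74 to 2.77 (median -2.57). The iNKT value was the more negative in 41 of the 46 pairs. The iNKT peak was also the more enriched over input in 40 of them, with median enrichments of 10.8 and 3.53 per the authors' deposited tables. Several peaks count in more than 1 pair, since the 46 pairs hold only 39 DP and 39 iNKT peaks. The paired rows of Setd1a exon 8 and peaks of Kmt2a, Kmt2b, Kmt2d and Setd1b are among them. The pair counts are therefore not counts of separate sites. Over all peaks the populations differed in the same direction. The median log2 change was -0.976 in iNKT and 0 in DP cells, and the median enrichment 8.32 and 4.7. Pair counts over all peaks were not computed. The tables were made separately, possibly with different protocols, so the difference between populations was not tested, and the part of enrichment in it was not tested either.

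The Kmt2d exon 35 site shows this contrast. The DP table gave 1 peak of 1170 nt there, with an enrichment of 5.23 and a log2 change of 0.0587 per the authors' deposited table. The iNKT table split the stretch into the pair with -5.30 and -7.74 per the authors' deposited tables. In Kmt2b exon 3, the DP peak of 990 nt, the most enriched of the gene (10.2), had 0.246 per the authors' deposited table, and the iNKT peaks over it had -5.49 and -6.29. The Setd2 peak that fell in iNKT cells overlapped the most enriched DP peak of the 8 genes, of 840 nt, with an enrichment of 14.9 and a log2 change of 0.0504 per the authors' deposited table. The higher Kmt2a exon 7 and Kmt2d exon 49 peaks had DP counterparts of -0.139 and 0.157 per the authors' deposited table. Neither higher Kmt2c peak had one.

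The other shared sites, none of them passing in DP cells, had the following values. The Kmt2d exon 40 sites had 0.369 and 0.113 in DP cells and -2.98 and -3.29 in iNKT cells per the authors' deposited tables. The 3' UTR site of Kmt2d had -0.237 and -2.57, its exon 32 site -0.252 and -1.46, and the exon 10 stretch 0.143 and 0.0915 for the DP peaks under it and -1.61 in iNKT cells per the authors' deposited tables. In Kmt2b exon 28 the DP peaks had 0.392 and 0.654 and the iNKT peaks -1.97 and -3.50, and the weaker exon 3 site had -0.175 and -3.28 per the authors' deposited tables.

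In Kmt2a exon 27 the DP peaks had 0.722 and -0.425 where a single iNKT peak had -3.32 per the authors' deposited tables. A neighbouring exon 27 site had -0.0674 and -0.683, and a DP peak next to it -0.11 against -3.08 per the authors' deposited tables. The exon 3 sites had DP values of -0.248 and -0.193 and iNKT values of -2.37, 0.198 and -2.02 per the authors' deposited tables. Kmt2c had DP values of -0.0257, 0.179, 0.288, 0.26, 0.192 and 0.699, with iNKT values at the same sites, in that order, of -3.85, -0.453, 0.422, -2.95, -1.22 and -1.44 per the authors' deposited tables.

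In the Setd1 genes the sites with the highest DP values were among those with strongly negative iNKT values. Setd1b exon 7 had 1.67 and -3.98 and Setd1a exon 8 had 1.93 and -2.94 per the authors' deposited tables, and none of these passed in either table. The Setd1b exon 6 stretch held DP peaks of 0.199 and 0.106 and the iNKT peak of -1.94 per the authors' deposited tables. The DP peaks over exons 9 to 12 had -0.202 and 0.744, under iNKT peaks of -5.60 and -3.57 per the authors' deposited tables. The DP peak in Setd1a exon 7 (0.0498) touched both iNKT peaks there, of -3.13 and -0.0041 per the authors' deposited tables.

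In Kmt2e and Setd2 the order of enrichment was often the other way round. At 2 of the 4 Kmt2e pairs (8.56 in DP and 3.42 in iNKT cells, and 2.83 and 2.28) and at the Setd2 site (14.9 and 2.95) the DP peak was the more enriched per the authors' deposited tables. The other exceptions were 2 pairs in Kmt2a exon 3 and 1 in Kmt2c. The Kmt2e pairs had log2 changes of -0.286 and -1.35, 0.533 and -0.688, 0.316 and -0.339, and -1.17 and -0.339, DP first, per the authors' deposited tables, and the last shares 1 base. The other Setd2 pair had -0.848 and -1.52 per the authors' deposited tables.

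**Figure D4:**
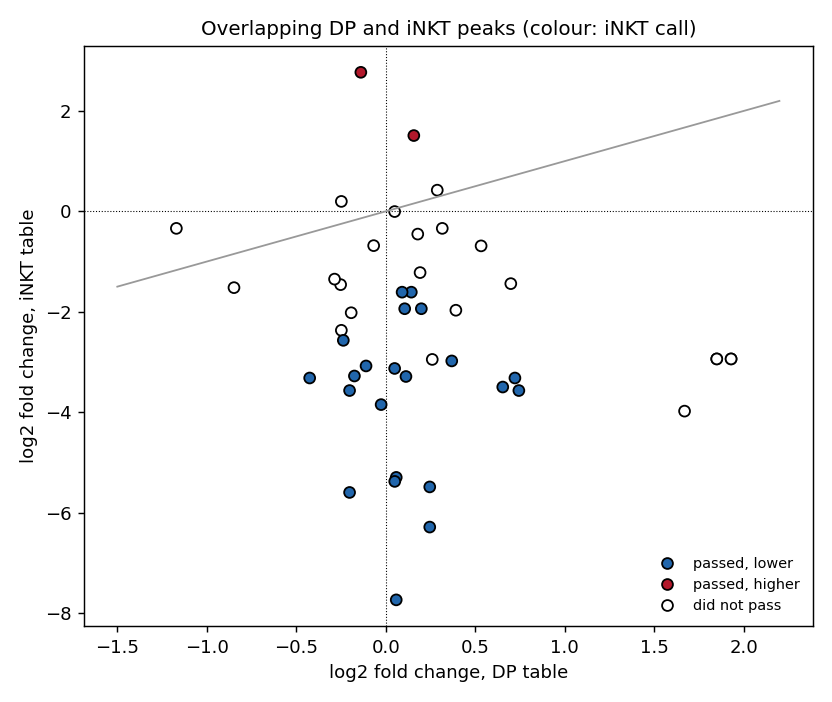
Log2 fold change in the iNKT table against that in the DP table for the 46 pairs of overlapping peaks of the 8 genes, coloured by the iNKT result. The grey line marks equal values, and 41 points lie below it.

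Peaks found in a single population numbered 28 of 67 in DP and 12 of 51 in iNKT cells. The same share over all peaks was not computed, so these counts, also those per gene, cannot be called high or low. Of the 12 iNKT peaks without a DP counterpart, 3 were named after Kmt2c and 3 after Kmt2d. Of the 28 DP peaks without an iNKT counterpart, 7 lay in Setd2 and 5 in Kmt2e. In Setd2 all 5 DP peaks of exon 3 of 21, which together cover 2969 nt with log2 changes from -0.237 to 1.14 per the authors' deposited table, had no iNKT counterpart. Kmt2b had no DP peak without an iNKT counterpart. A site without a peak was not shown to lack m6A, since the input level and depth there are unknown.

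By class, the peaks of the 8 genes lay mostly in exons, and this class includes first and last exons. The authors' annotation placed 55 of 67 DP peaks (82.1%) and 47 of 51 iNKT peaks (92.2%) in exons outside the UTR classes, against 45.9% and 39.8% of all peaks. The 3' UTR class held 12 and 4 peaks (17.9% and 7.84%, against 45.5% and 45.2% of all peaks) and the 5' UTR class held none. This class does not always mark the end of the gene. A DP peak of Kmt2a in it lies 51.77 kb from the start of a gene of 77998 nt. DP peaks had a median of 330 exonic nt and iNKT peaks 270, against 241 and 181 for all peaks.

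Part of this comes from how peaks were named. On the strand and inside the RefSeq span of 5 of the genes, 9 DP and 11 iNKT peaks carry the name of a neighbour (Ttc36 for Kmt2a, Hsd3b7 for Setd1a, Psmd9 for Setd1b, Nradd for Setd2 and Prkag1 for Kmt2d). All lie within 4497 nt of the end of the gene. With members taken by position, the exon class held 77% of 74 DP and 78% of 59 iNKT peaks. The iNKT counts were then 19 lower and 5 higher, and the median was -1.61 per the authors' deposited table. The 2 added higher rows are overlapping listings, 3 nt apart, of 1 peak towards the end of Setd1a, with log2 changes of 0.87 (FDR 0.0024) and 0.846 (FDR 0.00302) per the authors' deposited table. Setd1a then has a lower peak in exon 7 and a higher one near its end. The 2 rows at the end of Setd1b had 2.91 and 2.25 per the authors' deposited table (FDR 0.161 and 0.188). Of the 11 added iNKT rows 7 were positive. The most enriched of these end peaks, in Kmt2a (57.2-fold over input), had a value of -0.399 per the authors' deposited table (not passing).

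Subunits and partners of these enzymes were taken as a list of 22 genes. In iNKT cells 15 had a peak, 39 peaks in all, of which 14 (35.9%) were lower in 9 genes and 3 (7.69%) were higher, all in Hnrnpl, against 19.8% and 5.84% of all iNKT peaks. Among the 14, 2 rows of Pagr1a and 2 of Psip1 list overlapping stretches, the Psip1 rows on opposite strands. The median log2 change over the list was -1.52 per the authors' deposited table. Paxip1, a subunit of the Kmt2c and Kmt2d complexes, had the deepest fall, -6.42 per the authors' deposited table (FDR 6.31e-13), and Ncoa6 of the same complexes had -4.47. Psip1, which tethers Kmt2a and menin to chromatin, had -5.74 per the authors' deposited table at an enrichment of only 1.39. Supt6, an elongation factor that works with Setd2, had -4.22 and -3.50 per the authors' deposited table. Hnrnpl, which encodes an RNA-binding partner of Setd2, had 1 lower peak and 3 higher ones (0.736, 1.83 and 2.71) per the authors' deposited table. Of the core subunits, Rbbp5 and Dpy30 had no peak in either table, and the 2 peaks named Wdr5, 1 per table, lay outside that gene. No peak of the list passed in DP cells, where 17 genes had 50 peaks. Among all DP peaks only 0.743% were lower and 0.483% higher, so a count of 0 does not set the list apart.

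Other histone methyltransferases were taken as a second list of 30 names, which includes older symbols and the noncatalytic Polycomb subunit genes Eed and Suz12. Of its 44 iNKT peaks, 10 did not lie within the named gene on its strand. In iNKT cells 19 of them had a peak, 44 peaks in all, of which 11 (25%) were lower in 9 genes and 3 (6.82%) higher in 3 genes, near the 19.8% and 5.84% of all iNKT peaks, with a median log2 change of -1.36 per the authors' deposited table. The most negative values, per the authors' deposited table, were -7.14 in Nsd3 and -4.86 in Nsd1, lysine 36 methyltransferase genes, and -4.90 in the lysine 9 methyltransferase gene Ehmt2. Setd7 had -4.14, Ezh2, the catalytic subunit gene of Polycomb repressive complex 2, had -4.08 and Kmt5a had -4.02 per the authors' deposited table. Ash1l had a higher peak of 2.93 and Kmt5b, which also had a lower peak, one of 1.34 per the authors' deposited table. A peak named Ezh1 (6.47 per the authors' deposited table) did not lie within that gene on its strand. No peak of the second list passed in DP cells, where 19 genes had 58 peaks, again beside 0.743% lower and 0.483% higher of all DP peaks.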

How the data were processed

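The submitters' processing notes name mm10 as build, STAR 2.6.0a, HOMER 4.9.1 and RSEM 1.3.0, besides Trim Galore 0.6.5 and FastQC 0.11.5 for reads. The deposited tables are labelled exomePeak, a peak caller for m6A data. Its version and settings, and whether replicates were pooled, were not stated in any label or header read. Per the labels, polyadenylated RNA was cut to about 150 nt, and both m6A-seq and a LACE-seq-based low-input protocol are named, not assigned to DP or iNKT cells. The authors deposited, per the file headers, a peak p-value, a fold enrichment as a linear ratio, a log2 fold change, and log10 p and FDR values treated as scores. Repeated rows were kept 1 time, which removed 5 DP and 24 iNKT rows, none of them members. Gene spans came from RefSeq (GRCm38.p6), with strands from its promoter table or, where it had none, from most of the gene's peaks. Members and lists were chosen with earlier results of these data known. Every member peak is accounted for, and passing peaks are given singly. From the other lists at most 6 lower and 6 higher passing peaks per table were eligible to be given with a value. Further lower peaks of genes named for a higher peak are mentioned without one. No test of its own was run, since no counts per library are given. The overlap step was tested on simulated data. Alternatives varied the FDR (0.01, 0.10), a 2-fold minimum, repeated and overlapping rows, gene assignment, an enrichment of at least 2, the sign, centring and the overlap rule. No peak sequence is printed, because no genome was used here. Tables were handled with pandas 2.3.3 and numpy 2.4.6 under Python 3.11.15, and figures drawn with matplotlib 3.10.9.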

Additional observations from a re-analysis of the deposited data

How the results depend on the processing

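Of 113 recomputed values for 15 results, 99 kept their side or stayed close to the reported value. Part of these 99 could not move, so the number does not measure stability. With both DP counts at 0, a stricter FDR, a 2-fold minimum, a subset of the peaks or a turned sign can only return 0. Keeping repeated rows cannot change the values of the 8 genes, since none of the repeated rows was a member. With the sign turned, which stays possible, the iNKT counts exchange: 4 lower and 19 higher for the 8 genes, 3 and 14 for the partners, 3 and 11 for the other methyltransferases. At an FDR of 0.10 the DP table had 1 higher peak of the 8 genes, 2 of the partners and 1 of the other methyltransferases. At an unadjusted p of 0.05, an alternative chosen after seeing the data, it had 6 lower and 6 higher peaks of the 8 genes. Without Kmt2d, likewise chosen later, 12 lower iNKT peaks were left. Centred on all iNKT peaks, the median of the 8 genes was -0.964. With a reciprocal overlap of 50% the pairs shared by both tables numbered 14 instead of 46, because it counts fewer overlaps. No paired analysis was possible because the deposited tables hold no values per replicate, and for the same reason no replicate could be left out. Depth is unknown, so weak peaks that did not pass cannot be told from unchanged ones.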
